A study of Mus musculus with 36 samples.

Results

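The 46 genes described here encode the machinery that segregates chromosomes, together with 4 genes whose human counterparts are mutated in primary microcephaly. They were taken as a fixed list of gene symbols, chosen with earlier results of these data known, and all 46 were found among the 46603 genes of both count tables. They were ordered here in 9 role groups, namely the spindle checkpoint (5 genes), mitotic kinases (4), the chromosomal passenger complex (4), the activator and ubiquitin-conjugating enzyme of the anaphase-promoting complex (2), kinetochore and centromere (10), mitotic kinesins (11), spindle assembly and chromosome structure (2), cytokinesis (4) and primary microcephaly (4). In dividing cells the kinetochore, built on centromeric chromatin marked by the histone CENP-A, attaches chromosomes to spindle microtubules. The spindle checkpoint holds back the anaphase-promoting complex until attachment is complete, after which CDC20 and UBE2C help mark cyclin B and securin for destruction. Most of these genes are transcribed late in the cell cycle under the DREAM and B-MYB-MuvB complexes. In the embryonic forebrain their transcripts come mainly from the cycling progenitors next to the ventricle. Loss of ASPM, WDR62, CDK5RAP2 or MCPH1 reduces the pool of these progenitors and makes a small cortex.

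RNA was sequenced from the neocortex of single C57Bl/6J embryos at E12.5 in 4 Chd8 genotypes with 3 embryos each, and from E10.5 telencephalic vesicles in 2 groups of 3 libraries, with 2 embryos pooled in each. At E12.5, Chd8 +/+ embryos were the shared control of Chd8 +/- embryos (1 null allele), Chd8 neo/neo embryos (2 hypomorphic alleles, in which a neo cassette in the intron after exon 3 disturbs splicing) and Chd8 neo/- embryos (1 hypomorphic and 1 null allele). These are constitutive alleles carried by every cell of the embryo. At E10.5, cKO embryos carried Chd8 f/f and Sox1-Cre, which recombines in neural progenitors, and Ctrl embryos were a mixture of Chd8 f/f and Chd8 f/+, with nothing said of Cre in their labels. Stage, dissection, pooling and sequencing runs therefore differ together between the 2 sets of libraries, and no level is tested across them. Replicates came from different litters, so the spread between embryos or pools of a group includes litter. The p-values rest on a spread estimated in common over all groups of a fit and drawn in part from other genes. These fits held 12 libraries at E12.5, 6 at E10.5 and 18 for differences of effects.

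Total counts per library were 38774591 to 61051667 at E12.5 and 49632937 to 68488879 at E10.5. Levels are CPM, counts set against the library total after TMM scaling. Where genes are compared with each other, RPKM also divides by exonic length. Chd8 itself was at 235 to 239 CPM in Chd8 +/+, 165 to 170.2 in Chd8 +/-, 203 to 213 in Chd8 neo/neo, 142 to 158 in Chd8 neo/-, 160.0 to 184 in Ctrl and 116 to 125 in cKO libraries, so that every mutant library lay below every control library of its stage. Among the mutants, Chd8 was higher in Chd8 neo/neo than in Chd8 +/- (log2 fold change of 0.33, SE of 0.043, edgeR adjusted p = 0.00897). Counts over the whole gene include exons outside the exon 3 that the null and cKO alleles lack. They do not tell misspliced transcripts of the neo allele from normal ones and do not give protein. The dorsal forebrain markers Emx1, Emx2, Pax6 and Lhx2 were detected in every group. Markers of other tissue were present as well. In Chd8 +/+ libraries those of the ventral telencephalon summed to 579 to 624 CPM and those of mesenchyme and meninges to 624 to 790 CPM.

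All 46 members passed the low-count filter at both stages. Per exonic length, Top2a (DNA topoisomerase II alpha, which untangles sister chromatids) stood highest in Chd8 +/+ neocortices at 108 ± 5.22 RPKM (SD, n = 3), followed by the checkpoint protein Bub3 at 79.8 ± 5.83, Cdc20 at 73.4 ± 4.29 and the spindle assembly factor Tpx2 at 70.1 ± 2.84 RPKM. The libraries of Top2a did not overlap with those of Bub3, whereas those of Bub3 and Cdc20, and of Cdc20 and Tpx2, overlapped. Mcph1 was the lowest member at 2.86 ± 0.0662 RPKM, below Kif14 at 4.61 ± 0.216 and Wdr62 at 5.53 ± 0.601 RPKM. In Ctrl vesicles at E10.5, Cdc20 at 123 ± 1.72 and Top2a at 118 ± 9.66 RPKM were the highest, with overlapping libraries, and Mcph1 was again the lowest at 4.66 ± 0.349 RPKM. The members together made up 6626 to 7017 CPM of each Chd8 +/+ library and 8139.9 to 8814 CPM of each Ctrl library. Between libraries of a group they varied little, with a median coefficient of variation of 4.02% in Chd8 +/+, 5.39% in Chd8 neo/neo, 3.13% in Chd8 neo/-, 6.10% in Ctrl and 3.396% in cKO libraries.

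Promoters are shown because genes of the late cell cycle are known for a pair of short elements close to their start sites. RefSeq windows (GRCm38.p6) from 250 bases before to 50 bases after the start were matched for 40 of the 46 members, the exceptions being Aurkb, Incenp, Kif20a, Mcph1, Spc24 and Tpx2. The hexamer TTTGAA, the core of the cell cycle genes homology region that the DREAM complex binds, was searched on both strands (TTCAAA on the other), as was CCAAT, the element of the factor NF-Y (which reads ATTGG on the other strand). Matches of the motifs can overlap. Of these motifs, TTTGAA was in a window of 29 of the 40 members (72.5%) and of 20.2% of all 27025 genes with a window, and CCAAT in 29 of 40 members (72.5%) and 41.1% of all genes. Many of these matches lie past the start. In the 250 bases before it, 12 of 40 members and 18.3% of all genes held TTTGAA. Of the other listed genes of mitosis, 35 of 97 (36.1%) held TTTGAA and 54 (55.7%) CCAAT. Of the listed DNA replication genes, 4 of 34 held TTTGAA and 21 (61.8%) CCAAT. Of the 8 members that were higher in either hypomorph, 7 held TTTGAA and 8 held CCAAT, against 3 and 4 of the 10 members that were lower in cKO vesicles. These are matches of letters and not binding sites, and the split between the groups of called genes was seen in the data and not tested.

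The first set gives the 120 bases before the start site, 5′ to 3′ on the strand of the gene, with matches of either motif in capitals. Ube2c and Cdc20 stand for the genes that rose at E12.5, Kif11 and Kif15 for genes that fell at E10.5 and hold TTTGAA, and Nuf2 and Cenph for changed genes with neither motif in these bases.
Ube2c, chr2:164769809-164769928, plus strand: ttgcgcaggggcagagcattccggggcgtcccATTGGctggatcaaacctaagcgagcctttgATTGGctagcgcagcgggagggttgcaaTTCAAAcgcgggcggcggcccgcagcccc
Cdc20, chr4:118437344-118437463, minus strand: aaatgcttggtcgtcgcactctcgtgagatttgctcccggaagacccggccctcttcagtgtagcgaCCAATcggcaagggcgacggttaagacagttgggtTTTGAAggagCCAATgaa
Kif11, chr19:37376262-37376381, plus strand: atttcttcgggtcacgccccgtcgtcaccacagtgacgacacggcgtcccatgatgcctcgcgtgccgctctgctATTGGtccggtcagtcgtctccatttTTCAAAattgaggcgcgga
Kif15, chr9:122950961-122951080, plus strand: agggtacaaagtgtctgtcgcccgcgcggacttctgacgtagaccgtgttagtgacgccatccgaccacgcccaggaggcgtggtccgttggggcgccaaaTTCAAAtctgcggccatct
Nuf2, chr1:169531465-169531584, minus strand: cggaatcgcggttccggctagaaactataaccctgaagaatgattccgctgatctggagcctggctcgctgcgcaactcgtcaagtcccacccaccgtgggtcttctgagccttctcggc
Cenph, chr13:100775900-100776019, minus strand: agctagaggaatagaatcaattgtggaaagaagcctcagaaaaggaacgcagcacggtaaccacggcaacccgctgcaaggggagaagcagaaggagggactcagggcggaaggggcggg

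In Cdca8, Cenpa, Kifc1, Plk1 and Spc25, which rose at E12.5, and in Kif20b, which fell at E10.5, a match began 2 to 31 bases after the start site. That of Cdca8 began at base 14 and is not printed. For the other genes, the next set gives 30 bases around the match, with TTTGAA or TTCAAA in capitals, and Kif20b holds a pair of matches in a row.
Cenpa, chr5:30666890-30666919, plus strand: ggcgggtgatttTTTGAActgctggcgacc
Kifc1, chr17:33890615-33890644, minus strand: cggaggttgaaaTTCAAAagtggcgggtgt
Plk1, chr7:122159453-122159482, plus strand: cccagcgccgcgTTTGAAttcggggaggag
Spc25, chr2:69206172-69206201, minus strand: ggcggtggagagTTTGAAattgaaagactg
Kif20b, chr19:34922353-34922382, plus strand: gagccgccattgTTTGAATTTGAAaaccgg

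In Chd8 neo/neo neocortices, 7 of the 46 members were expressed at higher levels than in Chd8 +/+ neocortices and none at lower levels. By comparison, 3.71% of the 18810 genes tested were called higher and 4.45% lower (edgeR's quasi-likelihood test, Benjamini-Hochberg adjusted p under 0.05). The 7 members were Kifc1, Cenpa, Plk1, Ube2c, Cdca8, Cdc20 and Cenph, with log2 fold changes between 0.25 and 0.36. The median log2 fold change over the 46 members was 0.08, where that of all genes tested was 0.0053, and 42 members had a fold change above 0. The largest change, that of Kifc1, was a rise of 28.2%. In bulk tissue, a change in the share of dividing cells and a change in RNA per cell cannot be told apart.

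**Figure D1:**
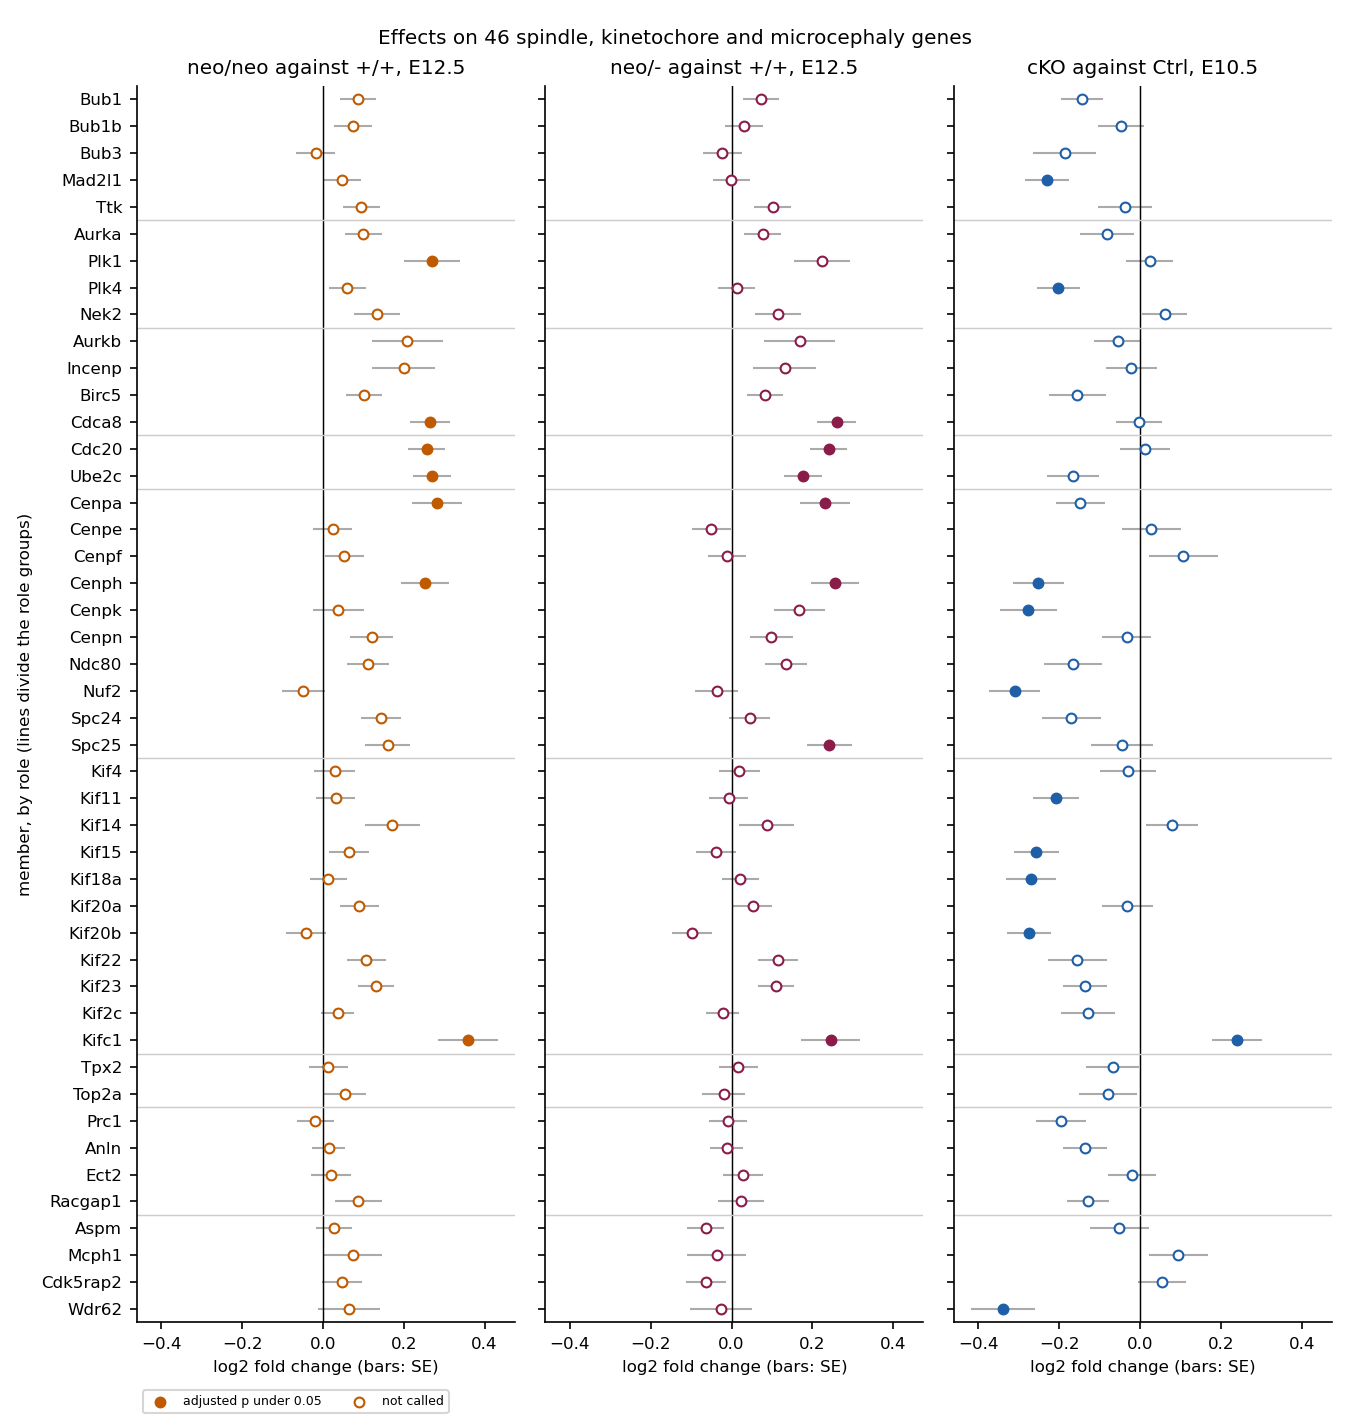
Log2 fold change (x axis, bars are standard errors) of each of the 46 members (y axis, ordered by role group, divided by grey lines) in Chd8 neo/neo and Chd8 neo/- neocortices against Chd8 +/+ at E12.5 and in cKO against Ctrl vesicles at E10.5; filled points have an adjusted p under 0.05. Filled points lie to the right of 0 in both hypomorphs (7 each), and 10 of the 11 in the cKO lie to the left, the exception being Kifc1.

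Both genes that drive the anaphase-promoting complex rose. Ube2c, which encodes the E2 enzyme that starts ubiquitin chains on its substrates (ENSMUSG00000001403, chromosome 2, 164769898 to 164778822 in GRCm38, and the first promoter above), was at 171, 162 and 177 CPM in the Chd8 +/+ libraries. Ube2c stood at 180.2, 168 and 177 CPM in the Chd8 +/-, 206, 207 and 201 CPM in the Chd8 neo/neo and 188, 204 and 184 CPM in the Chd8 neo/- libraries. All 3 Chd8 neo/neo libraries lay above all Chd8 +/+ and Chd8 +/- libraries, and the log2 fold change against Chd8 +/+ was 0.27 (SE of 0.047, edgeR adjusted p = 0.00572). Cdc20, the activator that brings substrates to the complex (ENSMUSG00000006398, chromosome 4, 118432901 to 118437352), was at 138, 129 and 145 CPM in the Chd8 +/+ libraries. Cdc20 stood at 141, 139 and 143 CPM in the Chd8 +/-, 166, 166 and 160.2 CPM in the Chd8 neo/neo and 162, 169.6 and 154 CPM in the Chd8 neo/- libraries. Its Chd8 neo/neo and Chd8 neo/- libraries were likewise all above the other 6 libraries, with a log2 fold change of 0.26 (SE of 0.046, edgeR adjusted p = 0.00594) in Chd8 neo/neo. Ube2c kept its call in all 23 alternative fits and Cdc20 in 22, the exception being the fit with both a replicate block and the length trend removed (edgeR adjusted p = 0.0627). 22.8% of the exonic bases of Ube2c are shared with Tnnc2 on the other strand, a gene that was at most 0.0841 CPM in any library.

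In the chromosomal passenger complex, which corrects faulty attachments and guides cytokinesis, only Cdca8 (borealin, which targets the complex to centromeres; ENSMUSG00000028873, chromosome 4, 124918465 to 124939311) passed the threshold. It was at 126, 119.8 and 136 CPM in the Chd8 +/+ libraries. Cdca8 stood at 129, 124 and 127 CPM in the Chd8 +/-, 157, 158 and 143 CPM in the Chd8 neo/neo and 155, 150.1 and 152 CPM in the Chd8 neo/- libraries. The 2 hypomorphic groups did not overlap with Chd8 +/+ or Chd8 +/-, which overlapped with each other, and the log2 fold change in Chd8 neo/neo was 0.27 (SE of 0.049, edgeR adjusted p = 0.00713). The call was lost by a small margin in the fit of these 2 groups alone (edgeR adjusted p = 0.0501) and kept in the other 22. The kinase of the complex and its other subunits had log2 fold changes of 0.21 for Aurkb, 0.20 for Incenp and 0.10 for Birc5, with edgeR adjusted p of 0.163, 0.132 and 0.165.

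Of the 10 kinetochore and centromere genes, Cenpa and Cenph rose. Cenpa, the histone H3 variant of centromeric nucleosomes (ENSMUSG00000029177, chromosome 5, 30666777 to 30674830), was at 141, 114 and 125 CPM in the Chd8 +/+ libraries. Cenpa stood at 119.8, 127 and 122 CPM in the Chd8 +/-, 161, 150.2 and 150.4 CPM in the Chd8 neo/neo and 149.99, 152 and 143 CPM in the Chd8 neo/- libraries. Its hypomorphic libraries were all above its other libraries, with a log2 fold change of 0.28 (SE of 0.062, edgeR adjusted p = 0.0157) in Chd8 neo/neo. Cenph, a subunit of the inner kinetochore (ENSMUSG00000045273, chromosome 13, 100759674 to 100775899), was at 30.3, 30.2 and 28.95 CPM in the Chd8 +/+ libraries. Cenph stood at 26.999, 29.2 and 29.2 CPM in the Chd8 +/-, 36.5, 37.9 and 32.2 CPM in the Chd8 neo/neo and 35.9, 35.6 and 35.3 CPM in the Chd8 neo/- libraries, again without overlap. Its log2 fold change in Chd8 neo/neo was 0.25 (SE of 0.059, edgeR adjusted p = 0.021). Cenpa lost its call in the fit of these 2 groups alone and without Chd8 neo/neo replicate 1, and Cenph in 7 of 23 alternative fits, 3 of them leaving out Chd8 neo/neo replicate 1, Chd8 neo/neo replicate 2 or Chd8 +/+ replicate 3, with edgeR adjusted p of up to 0.0685 and 0.101. The other 8 had log2 fold changes from -0.05 for Nuf2 to 0.16 for Spc25.

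Of 11 mitotic kinesins, Kifc1 was the 1 that passed the threshold. It encodes a minus-end directed motor that clusters spindle poles (ENSMUSG00000079553, chromosome 17, 33875666 to 33890661). It was at 55.6, 47.5 and 54.4 CPM in the Chd8 +/+ libraries. Kifc1 stood at 49.4, 55.1 and 54.6 CPM in the Chd8 +/-, 74.6, 64.2 and 63.4 CPM in the Chd8 neo/neo and 63.8, 63.8 and 59.3 CPM in the Chd8 neo/- libraries. The Chd8 neo/neo libraries lay above all Chd8 +/+ and Chd8 +/- libraries, with replicate 1 the highest, and the log2 fold change was 0.36 (SE of 0.073, edgeR adjusted p = 0.0116). The call was lost without Chd8 neo/neo replicate 1 (edgeR adjusted p = 0.0519) and kept in the other 22 alternatives. Kifc1 counts are uncertain because 39.7% of the 50-base words of its transcripts also occur in those of other genes, mostly Kifc5b. Kifc5b was at 15.1 to 19.6 CPM in Chd8 +/+ and 19.9 to 23.6 CPM in Chd8 neo/neo, the log2 fold change being 0.29 (SE of 0.09, edgeR adjusted p = 0.0591). The other 10 kinesins had log2 fold changes from -0.04 for Kif20b to 0.17 for Kif14. Kif4, the chromokinesin on the X chromosome (ENSMUSG00000034311, chromosome X, 100625737 to 100727214), was at 121, 129 and 134 CPM in the Chd8 +/+ libraries. Kif4 stood at 128, 122 and 131 CPM in the Chd8 +/-, 140.1, 129.6 and 122 CPM in the Chd8 neo/neo and 127, 131 and 130.3 CPM in the Chd8 neo/- libraries, with overlapping groups. 15.1% of the exonic bases of Kif4 are shared with Pdzd11 on the other strand. Pdzd11 was at 49.8 to 56.2 CPM in Chd8 +/+, 57.6 to 59.5 CPM in Chd8 neo/neo and 64.0 to 65.7 CPM in Chd8 neo/- libraries. Its log2 fold change in Chd8 neo/- was 0.29 (SE of 0.05, edgeR adjusted p = 0.00251), and its part in the counts of Kif4 was not tested.

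Of the mitotic kinases, Plk1, which acts at centrosomes, kinetochores and the midzone (ENSMUSG00000030867, chromosome 7, 122159437 to 122169875), was at 116, 112 and 131 CPM in the Chd8 +/+ libraries. Plk1 stood at 117, 127 and 122 CPM in the Chd8 +/-, 148, 155 and 129.9 CPM in the Chd8 neo/neo and 140.1, 147 and 133 CPM in the Chd8 neo/- libraries. Chd8 neo/neo replicate 3 lay just below the highest Chd8 +/+ library, and the log2 fold change was 0.27 (SE of 0.069, edgeR adjusted p = 0.0327). This was the least stable of the 7 calls, lost in 10 of 23 alternative fits, 5 of which left out a library (Chd8 neo/neo replicate 1 or 2, Chd8 +/+ replicate 1 or 2, or Chd8 neo/- replicate 1), with an edgeR adjusted p of up to 0.136. The checkpoint genes were not called. Ttk, the checkpoint kinase with the smallest adjusted p of that group, was at 70.5, 73.6 and 75.3 CPM in the Chd8 +/+, 80.7, 77.9 and 75.8 CPM in the Chd8 neo/neo and 79.2, 79.0 and 77.2 CPM in the Chd8 neo/- libraries. All 6 hypomorphic libraries lay just above Chd8 +/+, at log2 fold changes of 0.09 (SE of 0.045, edgeR adjusted p = 0.211) and 0.10 (SE of 0.045, edgeR adjusted p = 0.17). Top2a, the better ranked of the spindle assembly and chromosome structure genes, was at 916, 986 and 1006 CPM in the Chd8 +/+, 1052, 1011 and 955 CPM in the Chd8 neo/neo and 937, 987 and 946 CPM in the Chd8 neo/- libraries, with overlap throughout. Racgap1, a central spindle protein of cytokinesis, was at 277.7, 256 and 293 CPM in Chd8 +/+ and 309.5, 298 and 271 CPM in Chd8 neo/neo, at a log2 fold change of 0.09 (SE of 0.058, edgeR adjusted p = 0.374), with overlap. The counts of Plk1 and Cdc20 are also open to reads of processed copies, since 10.4% and 10.6% of their 50-base words occur in transcripts of other genes, mostly Plk-ps1 and Gm7856.

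**Figure D2:**
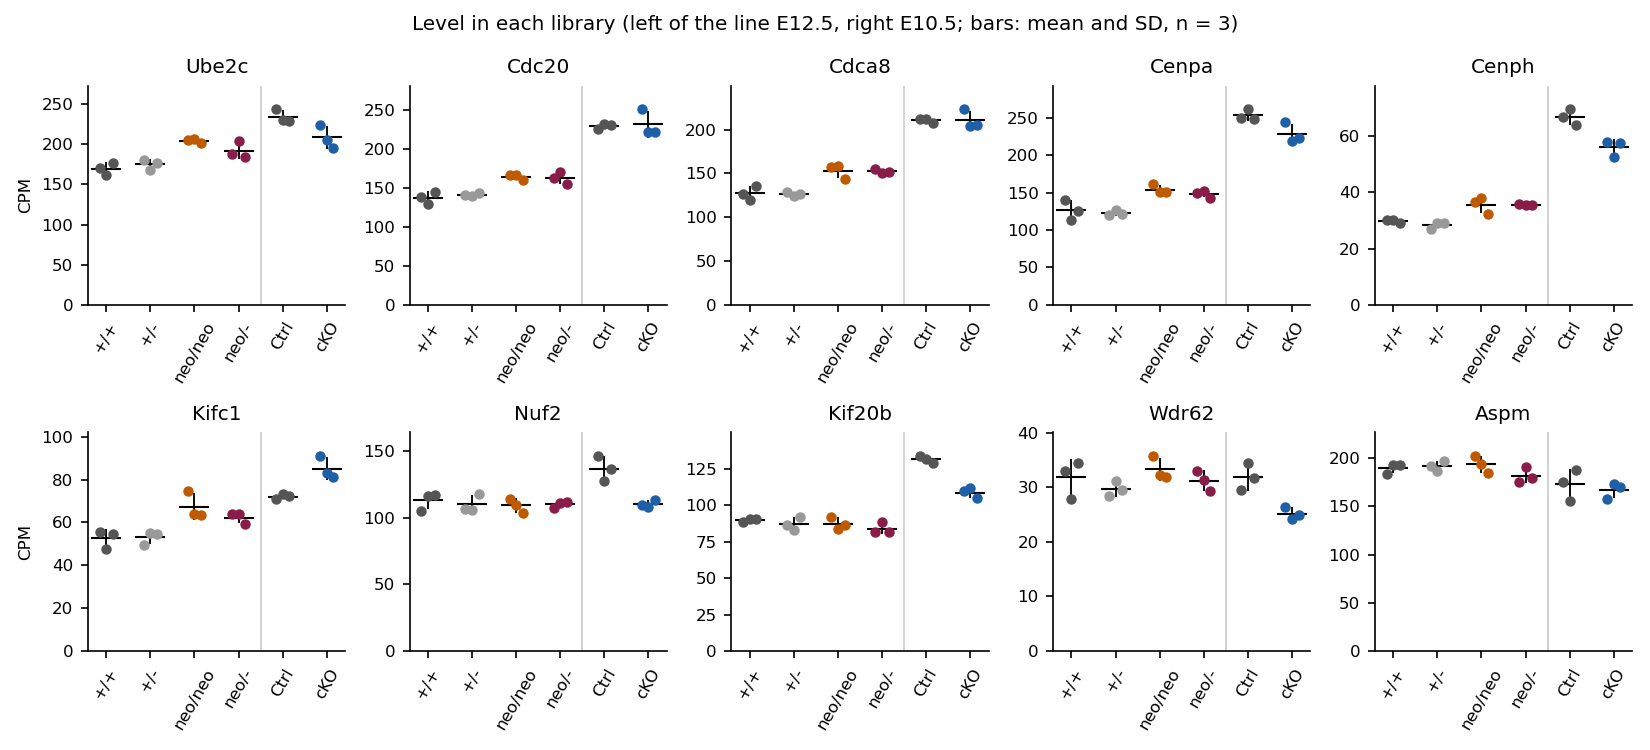
CPM (y axis, from 0) of 10 members in each of the 18 libraries (points), by genotype (x axis), with the mean and SD of the 3 libraries of a group as black bars; the grey line divides E12.5 from E10.5, which were scaled separately. Ube2c, Cdc20, Cdca8, Cenpa, Cenph and Kifc1 are higher in both hypomorphs than in Chd8 +/+ and Chd8 +/-, Cenph, Nuf2, Kif20b and Wdr62 are lower in cKO than in Ctrl, and Kifc1 is higher.

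In Chd8 neo/- neocortices, again 7 members were higher than in Chd8 +/+ and none lower, next to 5.48% higher and 5.99% lower over all genes. They were Cdca8, Cenph, Kifc1, Cdc20, Spc25, Cenpa and Ube2c, with log2 fold changes from 0.18 to 0.26, and the median over the 46 members was 0.04. Of these, 6 were also called in Chd8 neo/neo, but the comparisons share the 3 Chd8 +/+ libraries. Cdca8 had a log2 fold change of 0.26 (SE of 0.049, edgeR adjusted p = 0.00437) and was called in all 23 alternative fits. Cdc20 followed with 0.24 (SE of 0.046, edgeR adjusted p = 0.00462), and Cenph with 0.26 (SE of 0.059, edgeR adjusted p = 0.0139). The values of Cenpa, Ube2c and Kifc1 were 0.23 (SE of 0.062, edgeR adjusted p = 0.0281), 0.18 (SE of 0.047, edgeR adjusted p = 0.0274) and 0.25 (SE of 0.073, edgeR adjusted p = 0.0437). Spc25, a subunit of the microtubule-binding NDC80 complex, was at 87.7, 98.0 and 97.7 CPM in the Chd8 +/+, 109.6, 105 and 102 CPM in the Chd8 neo/neo and 109, 114 and 112 CPM in the Chd8 neo/- libraries, with a log2 fold change of 0.24 (SE of 0.056, edgeR adjusted p = 0.0139) in Chd8 neo/-. Its partners in that complex had 0.14 for Ndc80, -0.04 for Nuf2 and 0.04 for Spc24, none of them called. Plk1 was just outside the threshold at 0.22 (SE of 0.069, edgeR adjusted p = 0.0539), and its Chd8 neo/- libraries did not overlap with Chd8 +/+. Ect2, which activates RhoA for cytokinesis, was at 176, 177 and 189 CPM in Chd8 +/+ and 181, 187 and 184 CPM in Chd8 neo/-, with overlap. Leaving out single libraries ended the calls of Cenpa (Chd8 neo/- replicate 1 or 2 or Chd8 +/+ replicate 2 or 3), Cenph (Chd8 neo/- replicate 1 or Chd8 +/+ replicate 3), Spc25 (Chd8 neo/- replicate 2 or 3 or Chd8 +/+ replicate 1), Ube2c (Chd8 neo/- replicate 1 or 2 or Chd8 +/+ replicate 1 or 2) and Kifc1 (any library of either group or Chd8 +/- replicate 3), with edgeR adjusted p over the alternatives of up to 0.106, 0.132, 0.116, 0.277 and 0.146.

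The counts of called members moved with single libraries, and so did those over all genes. In Chd8 neo/neo they were 3 without Chd8 neo/neo replicate 1, 13 without replicate 3, and 3 in a fit of these 2 groups alone. In Chd8 neo/- they were 3 without Chd8 neo/- replicate 1 or 2 and 4 without Chd8 +/+ replicate 1 or 2. Over all genes, 697 were higher in Chd8 neo/neo, 258 and 999 without its replicates 1 and 3, and 169 in the fit of 2 groups. In Chd8 neo/- they were 1031, with 521 and 480 without its replicates 1 and 2 and 659 and 849 without Chd8 +/+ replicates 1 and 2. No member was called lower in either comparison in any of the 23 alternatives. By library, the median member lay 0.16, 0.09 and 0.01 above the Chd8 +/+ mean on the log2 scale in the 3 Chd8 neo/neo libraries, with 45, 41 and 27 of the 46 members above it. The same medians were 0.06, 0.07 and 0.03 in Chd8 neo/-, -0.03, -0.03 and 0.04 in Chd8 +/-, and -0.03, 0.00 and 0.04 in Chd8 +/+ itself. Chd8 neo/neo replicates 1 and 2 thus stood above every Chd8 +/+ library, and replicate 3 within their range.

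**Figure D3:**
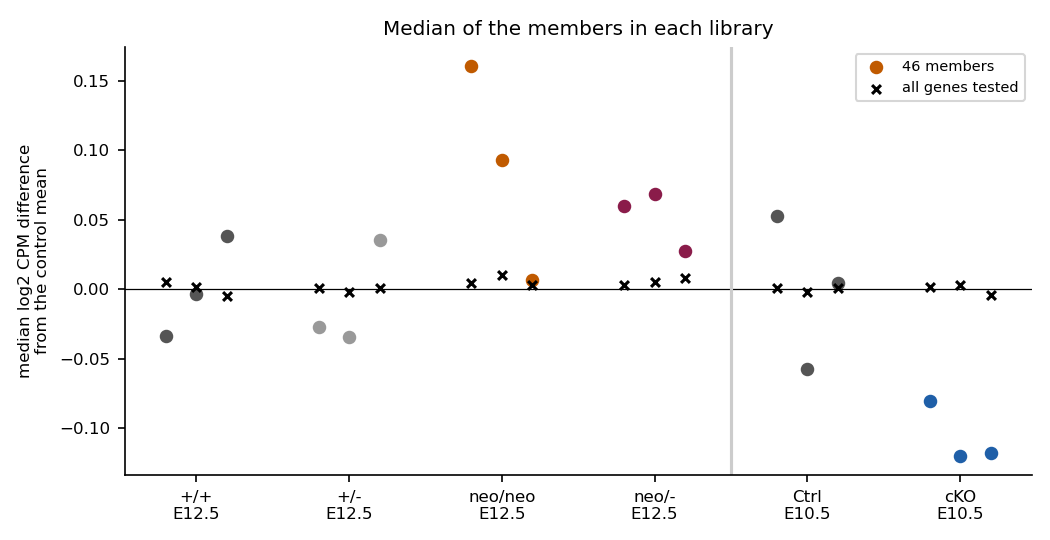
Median over the 46 members of the log2 CPM difference from the mean of the control libraries of the stage (y axis), for each of the 18 libraries (filled points) by group (x axis), with the same median over all genes tested as crosses. Chd8 neo/neo replicate 1 is highest at 0.16, the 3 cKO libraries lie at -0.08 to -0.12, and the crosses stay within 0.01 of 0.

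In both hypomorphs, shorter members rose more than longer ones. Over the 46 members, Spearman's rho between log2 fold change and exonic length was -0.49 in the Chd8 neo/neo and -0.62 in the Chd8 neo/- neocortices, and over all 18810 genes tested it was -0.19 and -0.26, given as descriptions over genes measured in the same libraries. The 15 shortest members (1349 to 3402 bases) had log2 medians of 0.14 in the Chd8 neo/neo and 0.14 in the Chd8 neo/- neocortices, and the 15 longest (5743 to 15433 bases) had 0.05 and -0.01. All genes tested in these length ranges had medians of 0.03 and 0.05 at the short end and -0.04 and -0.06 at the long end. With the trend of each library with length removed, 588 and 630 of all 18810 genes were higher in the 2 hypomorphs. Under this setting 6 members were called higher in the Chd8 neo/neo and 2 in the Chd8 neo/- neocortices, Cdca8 at 0.29 (edgeR adjusted p = 0.00737) and Cenpa at 0.27 (edgeR adjusted p = 0.0116), and the medians over the members were 0.11 and 0.06. The source of the length trend was not tested.

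**Figure D4:**
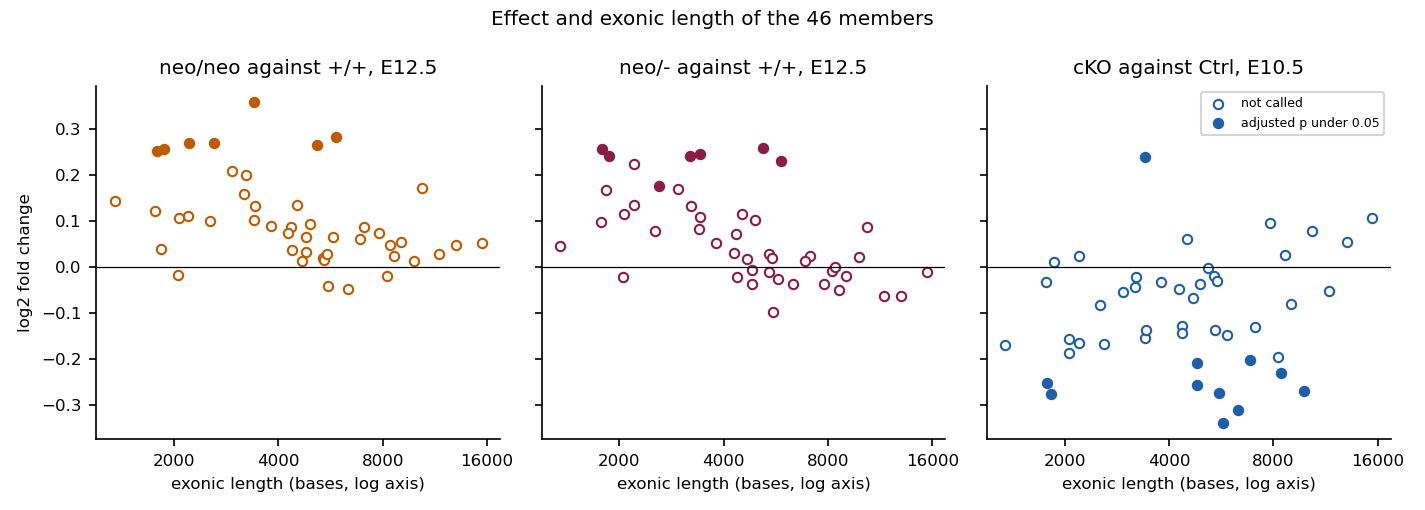
Log2 fold change (y axis) against exonic length in bases (x axis, log scale) for the 46 members in the 3 comparisons against controls; filled points have an adjusted p under 0.05. The points slope down with length in Chd8 neo/neo (rho -0.49) and Chd8 neo/- (rho -0.62) and do not in the cKO (rho 0.12).

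In Chd8 +/- neocortices no member was called by edgeR, next to 0.0213% of all genes in either direction, and the median over the members was -0.01. Of the 46 members, 1 had an unadjusted p under 0.05, and none was called by DESeq2. Against Chd8 +/-, a separate set of 3 libraries, 9 members were higher in Chd8 neo/neo and none lower (2.00% and 3.28% of all genes). These were Cenpa (0.33), Kifc1 (0.34), Cenph (0.32), Cdca8 (0.27), Ube2c (0.23), Cdc20 (0.22), Cenpn (0.21), Spc24 (0.21) and Birc5 (0.20, all log2). Of these 9, 6 were also called in Chd8 neo/neo against Chd8 +/+, but the same 3 libraries of each hypomorph enter both of its comparisons. Same-numbered libraries of Chd8 neo/neo and Chd8 +/- were weakly correlated, and no source says what the number marks. With the replicate number as a block, 7 were called, and 4 with the length trend also removed. In these 2 fits 201 and 204 of all genes were higher. No member was called without Chd8 +/- replicate 1, Chd8 neo/neo replicate 1 or Chd8 neo/neo replicate 2, 4 without Chd8 +/- replicate 2 or 3, 16 without Chd8 neo/neo replicate 3, and 1 in a fit of the 2 groups alone. Over all genes 377 were higher, and in these fits, in the same order, 15, 26, 10, 179, 80, 715 and 20. In Chd8 neo/- against Chd8 +/-, 5 members were higher and none lower (2.18% and 3.25% of all genes), namely Cenph (0.32), Cdca8 (0.27), Cenpa (0.27), Cdc20 (0.20) and Birc5 (0.18). That count was 2 without Chd8 +/- replicate 1 or 3, 3 without Chd8 +/- replicate 2, 1 without Chd8 neo/- replicate 1 and 2 without Chd8 neo/- replicate 2. Over all genes 410 were higher, and 108, 179, 252, 109 and 99 in these fits. No member differed by the test between Chd8 neo/- and Chd8 neo/neo, where 0.0159% of all genes did, 1 of the 46 had an unadjusted edgeR p under 0.05, and DESeq2 called none.

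Markers of cell types moved in the same libraries. Of 10 neuronal markers, 3 were lower in Chd8 neo/neo (Dcx, Map2 and Snap25) and 2 in Chd8 neo/- (Dcx and Map2), and none higher. Their summed level was 3612 to 4296 CPM in Chd8 +/+, 3734 to 4311 CPM in Chd8 +/-, 2911 to 3417 CPM in Chd8 neo/neo and 3231 to 3651 CPM in Chd8 neo/- libraries. Of 8 neural progenitor markers, Sox2 and Pax6 were higher in Chd8 neo/neo and none changed by the test in Chd8 neo/-, and their summed level was 2856 to 3091 CPM in Chd8 +/+, 2848 to 3332 CPM in Chd8 neo/neo and 3038 to 3099 CPM in Chd8 neo/-. The embryonic globin genes Hbb-bh1 and Hba-x, transcribed in primitive red cells, were higher in Chd8 neo/-, at 1.61 (SE of 0.41, edgeR adjusted p = 0.0425) and 0.94 (SE of 0.25, edgeR adjusted p = 0.0433) on the log2 scale. In Chd8 neo/neo their values were 1.17 (SE of 0.41, edgeR adjusted p = 0.121) and 0.29 (SE of 0.25, edgeR adjusted p = 0.518). Of 5 endothelial markers, Kdr was lower in Chd8 neo/neo, and no marker of intermediate progenitors, ventral telencephalon, macrophages, mesenchyme or surface ectoderm was called in either hypomorph. Surface ectoderm markers summed to 6.75 to 7.59 CPM in Chd8 +/+ and 6.39 to 7.47 CPM in Chd8 neo/neo, with Krt5 and Krt14 at or near 0. The part of these shifts in the members' levels was not tested.

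Sex-linked genes were unevenly spread over the genotypes. The labels used here give no sex, and 5 such genes (Xist and 4 Y-linked genes) summed to 264 to 271 CPM in the 3 Chd8 neo/- libraries. The median sum was 1829.6 CPM in Chd8 neo/neo, 295 CPM in Chd8 +/+ and 287 CPM in Chd8 +/-. The groups thus differed in the sex of their embryos as far as these genes show it. With the ratio of Xist to the Y-linked genes as a covariate, 6 members were called in the Chd8 neo/neo and 8 in the Chd8 neo/- neocortices against Chd8 +/+. Over all genes 446 and 912 were higher in these fits, and 697 and 1031 in the main fit. Against Chd8 +/-, 4 and 6 members were called with the covariate, where 113 and 330 of all genes were higher. In the cKO against Ctrl the covariate gave 12 called members, next to 2467 of all genes called in either direction.

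None of the 4 primary microcephaly genes passed the threshold at E12.5, and Wdr62 fell at E10.5. Aspm, a spindle pole protein (ENSMUSG00000033952, chromosome 1, 139454772 to 139494091), was at 184, 193 and 193 CPM in the Chd8 +/+ libraries. Aspm stood at 192, 186 and 197 CPM in the Chd8 +/-, 202, 194 and 185 CPM in the Chd8 neo/neo and 175, 191 and 179 CPM in the Chd8 neo/- libraries. At E10.5, Aspm was at 176, 156 and 187 CPM in Ctrl and 157, 173 and 169.6 CPM in cKO vesicles. All of its groups overlapped with their controls. Cdk5rap2, a centrosomal protein that anchors microtubule nucleation (ENSMUSG00000039298, chromosome 4, 70216856 to 70410443), was at 161, 154 and 168 CPM in the Chd8 +/+ libraries. Cdk5rap2 stood at 160.0, 157 and 153 CPM in the Chd8 +/-, 178, 164 and 157 CPM in the Chd8 neo/neo and 158, 158 and 147 CPM in the Chd8 neo/- libraries. At E10.5, Cdk5rap2 was at 136, 143 and 149 CPM in Ctrl and 141, 154 and 149 CPM in cKO vesicles. Mcph1, which restrains premature mitotic entry (ENSMUSG00000039842, chromosome 8, 18595131 to 18803189), was at 22.3, 21.9 and 22.9 CPM in the Chd8 +/+ libraries. Mcph1 stood at 21.8, 22.4 and 22.3 CPM in the Chd8 +/-, 25.5, 24.9 and 20.2 CPM in the Chd8 neo/neo and 21.9, 22.1 and 21.3 CPM in the Chd8 neo/- libraries. At E10.5, Mcph1 was at 33.7, 39.2 and 36.1 CPM in Ctrl and 38.8, 40.0 and 37.7 CPM in cKO vesicles. These genes also overlapped in every comparison with the controls. Wdr62, a spindle pole scaffold (ENSMUSG00000037020, chromosome 7, 30240138 to 30280419), was at 32.9, 27.9 and 34.5 CPM in the Chd8 +/+ libraries. Wdr62 stood at 28.3, 31.2 and 29.5 CPM in the Chd8 +/-, 35.7, 32.1 and 32.0 CPM in the Chd8 neo/neo and 33.0, 31.2 and 29.3 CPM in the Chd8 neo/- libraries, with overlap. In E10.5 vesicles it was at 29.4, 34.4 and 31.6 CPM in Ctrl and 26.4, 24.2 and 24.8 CPM in cKO vesicles, every cKO library lying below every Ctrl library, with a log2 fold change of -0.34 (SE of 0.079, edgeR adjusted p = 0.0206). The call was lost without cKO replicate 2 or 3 or Ctrl replicate 3 (edgeR adjusted p of up to 0.112). At E12.5 the log2 fold changes of these genes were 0.03, 0.05, 0.07 and 0.06 in Chd8 neo/neo and -0.06, -0.06, -0.04 and -0.03 in Chd8 neo/-, in the order Aspm, Cdk5rap2, Mcph1 and Wdr62. With the length trend removed the latter were 0.04, 0.06, 0.03 and 0.01, the direction thus changing with this setting.

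In cKO vesicles at E10.5, 10 of the 46 members were lower than in Ctrl vesicles and 1 was higher, against 5.70% lower and 5.75% higher over the 18435 genes tested. The median log2 fold change of the members was -0.11, with 9 members above 0, where that of all genes was -0.0019. The members that fell were Nuf2, Cenpk and Cenph of the kinetochore, the kinesins Kif11, Kif15, Kif18a and Kif20b, the checkpoint protein Mad2l1, the centriole duplication kinase Plk4 and Wdr62, with log2 fold changes from -0.20 to -0.34. Kifc1 rose. The count of called members was 0 without cKO replicate 2, 1 without cKO replicate 3, 7 without cKO replicate 1 and 3 without Ctrl replicate 3. Over all genes, 2110 were called in either direction, and in the same order 538, 826, 1650 and 951 in these fits.

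Nuf2, which with NDC80 forms the microtubule-binding arm of the kinetochore (ENSMUSG00000026683, chromosome 1, 169497934 to 169531464; its promoter is shown above), was at 146, 128 and 137 CPM in Ctrl and 109.8, 108 and 114 CPM in cKO vesicles. The groups did not overlap, at a log2 fold change of -0.31 (SE of 0.063, edgeR adjusted p = 0.0115), and the call was lost only without cKO replicate 2 (edgeR adjusted p = 0.0746). Kif20b, a kinesin of the midzone and midbody (ENSMUSG00000024795, chromosome 19, 34922358 to 34975731), was at 134, 131 and 129 CPM in Ctrl and 109, 112 and 105 CPM in cKO vesicles, again without overlap. Its log2 fold change was -0.27 (SE of 0.054, edgeR adjusted p = 0.0106), lost without cKO replicate 2 or 3 (edgeR adjusted p of up to 0.0616). At E12.5 the levels of Kif20b were 88.7, 90.3 and 90.5 CPM in Chd8 +/+ and 92.1, 83.7 and 86.1 CPM in Chd8 neo/neo, with overlap. Mad2l1, which binds CDC20 to keep it inactive (ENSMUSG00000029910, chromosome 6, 66535390 to 66547220), was at 208, 193 and 195 CPM in Ctrl and 170.0, 167 and 169.9 CPM in cKO vesicles, at a log2 fold change of -0.23 (SE of 0.055, edgeR adjusted p = 0.0226). Plk4, the kinase that starts centriole duplication (ENSMUSG00000025758, chromosome 3, 40800019 to 40816883), was at 153, 151 and 155 CPM in Ctrl and 132, 138 and 129 CPM in cKO vesicles, at -0.20 (SE of 0.054, edgeR adjusted p = 0.0345). Both were below Ctrl in every cKO library, and both calls were lost without cKO replicate 2 or 3 or Ctrl replicate 3, and that of Plk4 also without cKO replicate 1 (edgeR adjusted p of up to 0.121 and 0.155).

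Kif15 and Kif11, motors that push spindle poles apart, had log2 fold changes of -0.26 (SE of 0.056, edgeR adjusted p = 0.0157) and -0.21 (SE of 0.057, edgeR adjusted p = 0.0386), and Kif18a, which damps chromosome movements at plus ends, -0.27 (SE of 0.062, edgeR adjusted p = 0.0196). Cenpk, an inner kinetochore subunit next to CENP-H, had -0.28 (SE of 0.07, edgeR adjusted p = 0.0287). Each of these calls was lost without cKO replicate 2 and without cKO replicate 3, and also without Ctrl replicate 3 for Kif15, Kif11 and Kif18a and without cKO replicate 1 or Ctrl replicate 1 for Kif11 and Cenpk, with edgeR adjusted p of up to 0.151. Kifc1 was at 71.0, 73.1 and 72.2 CPM in Ctrl and 91.0, 83.1 and 81.1 CPM in cKO vesicles, and every cKO library lay above every Ctrl library, with a log2 fold change of 0.24 (SE of 0.061, edgeR adjusted p = 0.0289). Kifc5b, with which it shares sequence, was higher as well, at 0.36 (SE of 0.067, edgeR adjusted p = 0.008). The call of Kifc1 was lost in 5 of the 6 fits that left out a library, the exception being that without Ctrl replicate 2 (edgeR adjusted p of up to 0.0982). The genes with the smallest adjusted p in the groups without a call were Ube2c at -0.17 (SE of 0.064, edgeR adjusted p = 0.116), Birc5, the survivin subunit of the passenger complex, at -0.16 (SE of 0.07, edgeR adjusted p = 0.177), Prc1, which bundles midzone microtubules, at -0.20 (SE of 0.062, edgeR adjusted p = 0.0633) and Top2a at -0.08 (SE of 0.073, edgeR adjusted p = 0.523).

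Their values were 244, 231 and 229 CPM in Ctrl and 224, 206 and 196 CPM in cKO vesicles for Ube2c, 190.0, 165 and 162 CPM in Ctrl and 161, 150.4 and 152 CPM in cKO vesicles for Birc5, 274.2, 241 and 265 CPM in Ctrl and 232, 224 and 224 CPM in cKO vesicles for Prc1 and 1123, 963 and 1102 CPM in Ctrl and 973, 1049.7 and 994 CPM in cKO vesicles for Top2a. The first 3 of these lay lower in every cKO library without passing the threshold, and Top2a overlapped. By role, the median log2 fold changes in the cKO were -0.16 for kinetochore and centromere, -0.14 for the checkpoint, -0.14 for kinesins, -0.13 for cytokinesis, -0.04 for the passenger complex, -0.03 for kinases and 0.00 for the microcephaly genes. In Chd8 neo/neo they were, in the same order, 0.12, 0.07, 0.06, 0.02, 0.20, 0.12 and 0.06. Length did not order the members in the cKO as it did in the hypomorphs, with a rho of 0.12 over the members and 0.13 over all genes. With the length trend removed, 11 members were called lower, next to 1256 of all genes, where 1050 were lower in the main fit. Beside these results, 3 of 6 mesenchymal and meningeal markers (Col1a2, Col3a1 and Pdgfra) were higher in the cKO, with a summed level of 854 to 1047 CPM against 686 to 769 CPM. Cdh5 of 5 endothelial and Cx3cr1 of 5 macrophage markers were also higher, and Snap25 of 10 neuronal markers lower. The 8 progenitor markers were not called and summed to 2023 to 2322 CPM against 1783 to 2208 CPM. The ventral telencephalon markers summed to 18.4 to 28.05 CPM in the cKO and 25.7 to 52.5 CPM in Ctrl, Gsx2 being called lower. The part of these markers in the members' fall was not tested.

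Whether the effect at E10.5 differed from that at E12.5 was tested in 1 fit of all 18 libraries as a difference of effects, each taken within its own stage. Against the Chd8 neo/neo effect, the cKO effect was lower in 16 members and higher in none, next to 3.16% lower and 3.64% higher over 19565 genes. Against the Chd8 neo/- effect it was lower in 11 members and higher in none, next to 2.89% and 3.90%. Of the 17 members that differed in either, 10 differed in both, and the cKO and Ctrl libraries enter both. Among the members the largest difference was that of Cenph, which rose at E12.5 and fell at E10.5. In E10.5 vesicles Cenph was at 66.7, 69.6 and 64.1 CPM in Ctrl and 57.9, 52.6 and 57.7 CPM in cKO vesicles, without overlap, at a log2 fold change of -0.25 (SE of 0.063, edgeR adjusted p = 0.0278), and its difference of effects was -0.51 (SE of 0.085, edgeR adjusted p = 0.00171) against Chd8 neo/neo and -0.51 (SE of 0.085, edgeR adjusted p = 0.0019) against Chd8 neo/-, called in all 28 alternative fits of either. Cenph was the 1 member called in opposite directions at the 2 stages, and its fall at E10.5 was lost without cKO replicate 2 or 3 or Ctrl replicate 2 or 3 (edgeR adjusted p of up to 0.161).

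Ube2c and Cenpa also kept this difference against Chd8 neo/neo in all 28 alternatives, at -0.44 (SE of 0.077, edgeR adjusted p = 0.00254) and -0.43 (SE of 0.087, edgeR adjusted p = 0.00622), as did Kif15 at -0.32 (SE of 0.072, edgeR adjusted p = 0.0113). At E10.5 Cenpa was at 250.3, 261 and 248 CPM in Ctrl and 244, 219 and 223 CPM in cKO vesicles, every cKO library below every Ctrl library, at a log2 fold change of -0.15 (SE of 0.061, edgeR adjusted p = 0.141). Cdca8 and Cdc20 differed as genes that rose at E12.5 and had log2 fold changes of 0.00 and 0.01 in the cKO, at 213, 212 and 208 CPM in Ctrl and 223, 204 and 205 CPM in cKO vesicles for Cdca8 and 225, 231 and 231 CPM in Ctrl and 250.2, 221 and 221 CPM in cKO vesicles for Cdc20. The difference of Cdc20 was called against Chd8 neo/neo only (edgeR adjusted p = 0.0488) and was lost in 22 of 28 alternatives, 15 of them leaving out a library. That of Cdca8 was lost in 9 of 28 against Chd8 neo/neo and 11 against Chd8 neo/-. Kifc1 rose at both stages, and its difference of effects was -0.12 (SE of 0.098, edgeR adjusted p = 0.508) against Chd8 neo/neo and -0.01 (SE of 0.098, edgeR adjusted p = 0.978) against Chd8 neo/-. The counts of differing members ranged from 4 without Chd8 neo/neo replicate 1 to 23 without Chd8 neo/neo replicate 3 for the first difference, and from 3 without cKO replicate 2 to 18 without Ctrl replicate 2 for the second. For the first, the count also dropped to 5 without cKO replicate 2, 6 without cKO replicate 3, 8 without Ctrl replicate 1, Chd8 neo/neo replicate 2 or Chd8 +/+ replicate 1, 7 without Chd8 +/+ replicate 2 and 10 without Chd8 neo/- replicate 1. For the second, it dropped to 4 without cKO replicate 3, Ctrl replicate 1 or Chd8 neo/- replicate 1 or 2, 5 without Chd8 +/+ replicate 1 or 2, 6 without Ctrl replicate 3 or Chd8 neo/- replicate 3, and 7 on leaving out Chd8 neo/neo replicate 2 or Chd8 +/+ replicate 3. Over all genes 618 were lower in the first difference, with 338 and 729 without Chd8 neo/neo replicates 1 and 3 and 646 without Chd8 +/+ replicate 1. In the second 566 were lower, with 213 without cKO replicate 2 and 852 without Ctrl replicate 2. None of the 28 alternatives called a member higher. The groups differ in allele, stage and tissue piece together, which cannot be told apart here.

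**Figure D5:**
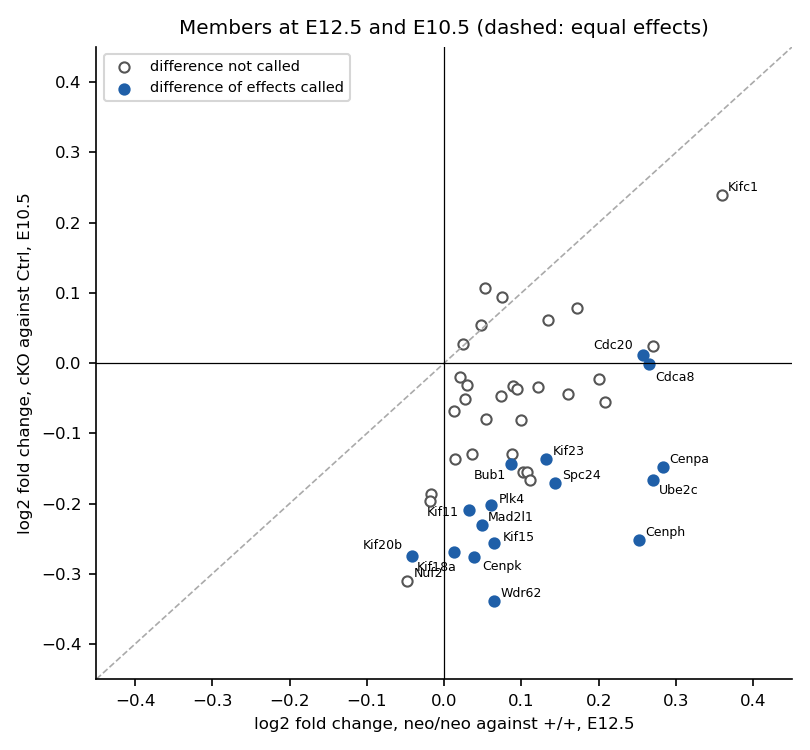
Log2 fold change of each of the 46 members in cKO against Ctrl vesicles at E10.5 (y axis) against that in Chd8 neo/neo against Chd8 +/+ neocortices at E12.5 (x axis), with equal effects on the dashed line; the 16 filled points have a difference of effects with an adjusted p under 0.05. All 16 lie below the line, Cenph lies in the lower right part, and Kifc1 is at the upper right.

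The other 114 listed genes of mitosis were tested in the same fits. In Chd8 neo/neo, 8 were higher and 2 lower, in Chd8 neo/- 14 and 5, and in the cKO 8 and 16, with median log2 fold changes of 0.08, 0.06 and -0.07. Over all genes the shares higher and lower were 3.71% and 4.45%, 5.48% and 5.99%, and 5.75% and 5.70%, and several of the counts are near them. By list, the counts of higher and lower genes in Chd8 neo/neo were 2 and 0 of 28 for mitotic entry and spindle, 1 and 2 of 25 for other kinetochore genes, 3 and 0 of 12 for DREAM, MuvB and mitotic transcription, 1 and 0 of 13 for the anaphase-promoting complex, 1 and 0 of 14 for centriole and other microcephaly genes, and 0 and 0 of 8 for condensin and of 14 for cohesin. In Chd8 neo/- they were, in that order, 4 and 0, 4 and 2, 2 and 1, 3 and 1, 0 and 1, 1 and 0, and 0 and 0. In the cKO they were 5 and 2, 1 and 7, 1 and 0, 1 and 1, 0 and 4, 0 and 1, and 0 and 1.

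At E12.5 the smallest adjusted p belonged to Anapc11, the RING subunit of the anaphase-promoting complex, at 0.38 (SE of 0.049, edgeR adjusted p = 0.00138) in the Chd8 neo/neo and 0.49 (SE of 0.049, edgeR adjusted p = 5.5e-05) in the Chd8 neo/- neocortices. Anapc11 was at 49.9, 53.9 and 51.8 CPM in the Chd8 +/+ libraries. Anapc11 stood at 59.6, 55.8 and 58.2 CPM in the Chd8 +/-, 63.5, 68.2 and 70.7 CPM in the Chd8 neo/neo and 71.7, 73.5 and 73.0 CPM in the Chd8 neo/- libraries, the hypomorphs lying above both other genotypes. Ska2, of the outer kinetochore, fell, at -0.17 (SE of 0.035, edgeR adjusted p = 0.0124) and -0.17 (SE of 0.035, edgeR adjusted p = 0.00753), Mybl2, the B-MYB factor that activates late cell cycle genes, 0.37 (SE of 0.078, edgeR adjusted p = 0.0142) in Chd8 neo/neo, and Cenpw, an inner kinetochore histone-fold protein, 0.48 (SE of 0.091, edgeR adjusted p = 0.00478) in Chd8 neo/-. In the cKO, Gtse1, a mitotic regulator that also restrains p53, rose by 0.81 (SE of 0.054, edgeR adjusted p = 2.1e-05) on the log2 scale, and it was at 90.2, 96.5 and 93.3 CPM in Ctrl and 163, 164 and 163 CPM in cKO vesicles. Cenpj, a centriole gene also mutated in primary microcephaly, had -0.38 (SE of 0.062, edgeR adjusted p = 0.00404), and Pttg1, the securin whose destruction CDC20 directs, -0.56 (SE of 0.099, edgeR adjusted p = 0.00611). Of 42 genes of DNA replication and nucleotide supply, in Chd8 neo/neo 14 were higher and 0 lower, in Chd8 neo/- these were 11 and 1, and 1 and 7 in the cKO, with medians of 0.14, 0.12 and -0.02. The shares over all genes, higher and lower, were 3.71% and 4.45%, 5.48% and 5.99%, and 5.75% and 5.70%.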

How the data were processed

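RNA-seq counts of 18 libraries were used, 12 from E12.5 neocortex (4 genotypes) and 6 from E10.5 telencephalic vesicles (2 groups), 3 per group. The authors deposited raw counts per gene and sequencing run, made from trimmed paired reads (FastQC 0.11.2, Trim Galore 0.4.1) aligned to GRCm38.p4 with TopHat2 2.1.0 and counted with featureCounts 1.5.0. The kit marked the strand, and the use of strand in counting is not stated, so reads of overlapping genes on opposite strands may be counted for either or for neither. The 2 runs of each library were summed. Both tables list the same 46603 Ensembl genes, of which 46005 were given a symbol from a table of gene names, and each of the 46 members matched 1 gene by symbol.

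Counts were tested with edgeR 4.0.16 (TMM factors, filterByExpr, robust quasi-likelihood fit) in R 4.3.3, with 1 fit of the 12 E12.5 libraries, 1 of the 6 E10.5 libraries, and 1 of all 18 for differences of effects. P-values were adjusted by Benjamini-Hochberg over all genes tested, and an adjusted p under 0.05 was called. The fits of each stage were run on simulated counts with 200 genes changed by 1 on the log2 scale. At E12.5 edgeR recovered 192 with 14 false calls, and at E10.5 194 with 20. Changes as small as those called in the members were not simulated, nor was the fit of all 18 libraries. Depth was 38774591 to 68488879 counts per library. Between libraries of a group, the chi-square of the counts per degree of freedom was 5.16 to 31.8, above the level of counting error, so none was taken as deposited more than once.

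Log2 fold changes are given for every called member. Values in each library are given for the member with the smallest adjusted p per role group in each comparison with a control, the microcephaly genes, Cenph (called in opposite directions) and Kif4 (X-linked), and the 3 genes with the smallest adjusted p are named from the other mitosis genes. Members and lists were chosen with earlier results of these data known. Alternatives were DESeq2 1.42.0, other scaling, no low-count filter, single runs, a sex-linked covariate, a fit of the 2 groups alone, removal of each library's trend with gene length, a replicate block, and leaving out each library. The block together with the length trend was added after seeing the data. CPM and RPKM were computed from the counts. Promoters are RefSeq windows on GRCm38.p6. Same-numbered libraries correlated at 0.108, 0.195 and 0.199 in Chd8 neo/neo against Chd8 +/-, the 1 comparison in which each pair passed 0.1, and no source names the numbers as shared litters or days. Libraries of different numbers reached 0.225 in Chd8 neo/neo against Chd8 +/+ and 0.213 in cKO against Ctrl, so these values do not establish a pairing. Some items are not reported here.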

Additional observations from a re-analysis of the deposited data

Results flagged for a closer look

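The values listed here are differences of effects, cKO against Ctrl at E10.5 minus a hypomorph against Chd8 +/+ at E12.5, that passed the test of the difference itself in the fit of all 18 libraries. A negative value is an effect lower in the cKO. Each gene is followed by its log2 difference and its edgeR adjusted p.

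Against the Chd8 neo/neo effect, these were Cenph (-0.51, 0.00171), Ube2c (-0.44, 0.00254), Cenpa (-0.43, 0.00622), Wdr62 (-0.41, 0.031), Kif15 (-0.32, 0.0113), Cenpk (-0.32, 0.0487), Spc24 (-0.32, 0.0397), Kif18a (-0.29, 0.0265), Mad2l1 (-0.28, 0.0179), Kif23 (-0.27, 0.0176), Cdca8 (-0.27, 0.0304), Plk4 (-0.27, 0.0167), Cdc20 (-0.25, 0.0488), Kif11 (-0.24, 0.0431), Kif20b (-0.24, 0.0434) and Bub1 (-0.23, 0.0308). Of these, Cenph, Ube2c, Cenpa and Kif15 kept the call in all 28 alternatives.

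Against the Chd8 neo/- effect, these were Cenph (-0.51, 0.0019), Cenpk (-0.45, 0.0091), Cenpa (-0.38, 0.0141), Ube2c (-0.35, 0.0123), Ndc80 (-0.30, 0.0476), Kif18a (-0.29, 0.0238), Cdca8 (-0.26, 0.0351), Kif23 (-0.25, 0.0296), Mad2l1 (-0.23, 0.0463), Plk4 (-0.22, 0.0452) and Bub1 (-0.22, 0.0436). Cenph was the 1 member that kept this call in all 28 alternatives. Ndc80 was called in this comparison and not against Chd8 neo/neo, where its value was -0.28 (SE of 0.09, edgeR adjusted p = 0.0662).

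Stage, allele, pooling and sequencing runs differ together between the effects and cannot be told apart. The mesenchymal markers that were higher in the cKO and the neuronal markers that were lower in the hypomorphs are given in the report, and their part in these differences was not tested.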

How the results depend on the processing

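The median log2 fold change over the 46 members moved by less than the spread between libraries in each of 210 values under alternatives. It ranged over 0.04 to 0.11 in Chd8 neo/neo, 0.02 to 0.08 in Chd8 neo/- and -0.13 to -0.07 in the cKO. That spread is wide next to medians of this size, so a change of sign can pass as no move. In Chd8 neo/- against Chd8 neo/neo the median was -0.04 in the main fit and reached 0.0066 in an alternative. Of 66 single calls none reversed and 7 were kept in every alternative run. Of the 25 calls against a control, 2 were kept in every alternative, namely Ube2c in Chd8 neo/neo and Cdca8 in Chd8 neo/-. The counts of called members moved more. Leaving out 1 library gave 3 to 13 in Chd8 neo/neo, 3 to 8 in Chd8 neo/-, 0 to 16 and 1 to 7 for these against Chd8 +/-, 0 to 11 in the cKO, and 4 to 23 and 3 to 18 for its differences from Chd8 neo/neo and Chd8 neo/-. Over all genes these ranges were 435 to 2605, 1015 to 2574, 23 to 2100, 244 to 1439, 538 to 2483, 623 to 1850 and 533 to 1796. In the main fits the counts over all genes were 1534, 2158, 994, 1021, 2110, 1331 and 1329. With the length trend removed, 2 members were called in Chd8 neo/-, 4 and 2 in Chd8 neo/neo and Chd8 neo/- against Chd8 +/-, and 7 in the difference from Chd8 neo/-. The counts over all genes under that setting were 1225, 543, 416 and 820. A fit of the 2 groups alone gave 3 in Chd8 neo/neo, and 1 and 9 against Chd8 +/-, next to 430, 42 and 1508 of all genes. The sex-linked covariate gave 4 in Chd8 neo/neo against Chd8 +/- and 10 in the difference from Chd8 neo/neo, next to 330 and 1055 of all genes. For the differences, RLE scaling gave 9 and 6 (1233 and 1224 of all genes) and no low-count filter 6 and 4 (1151 and 1130 of all genes). The second run alone gave 6 for the difference from Chd8 neo/- (928 of all genes). The causes of these moves were not tested.

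With the replicate number as a block, 6 members were called in Chd8 neo/neo, 5 in Chd8 neo/-, 7 and 4 for these against Chd8 +/-, 13 in the cKO, 14 and 11 for the differences and 0 in Chd8 +/- and in Chd8 neo/- against Chd8 neo/neo. Over all genes the counts with the block were, in the same order, 1161, 1721, 572, 688, 2598, 1462, 1478, 2 and 2. No source says that libraries of the same number share more than that number, in any comparison. The block together with the length trend removed gave 4 in Chd8 neo/neo, 2 in Chd8 neo/-, 4 and 2 for these against Chd8 +/-, and 5 for the difference from Chd8 neo/-. The counts over all genes were then 688, 1013, 361, 295 and 770. The smallest called change of a member against its control was 0.18 on the log2 scale, and 3 libraries a group limit smaller ones.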
